A study of Mus musculus with 8 samples.

Results

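The genes described here are 10 genes of the epidermal keratinocyte, *Gjb2*, *Asprv1*, *Sfn*, *Krt5*, *Krt14*, *Krt6a*, *Krt16*, *Krt17*, *Trp63* and *Sprr1a*, out of 18990 genes measured by RNA-seq during the early reprogramming of mouse fibroblasts. *Gjb2* and *Asprv1* were chosen from their difference at day 6, so that their values in any comparison with day 6 libraries are a description and carry no test. The other 8 were chosen by name as genes of stratified epithelium, with earlier results of these data known. All 10 were found in the table. The cells were wild-type BL6 primary mouse embryonic fibroblasts (MEFs) that carried a lentiviral cassette with *Oct4*, *Sox2*, *Klf4* and *c-Myc* (OSKM) under doxycycline control, together with the rtTA activator. They received 40 nM of pooled siRNAs against *Ncor1* (*siNcor1*) or *Oct4* (*siOct4*) before doxycycline was added. RNA was taken 3 and 6 days into reprogramming, and each of the 4 groups holds 2 biological replicates. The cassette, the doxycycline and a medium with LIF, ascorbic acid, chiron and an Alk5 inhibitor were thus common to all groups. Non-targeting control libraries were not used here, so that the knockdowns are compared with each other and not with unperturbed reprogramming. The cells are a mixed population after lentiviral transduction, and in bulk RNA fewer cells of a type and less RNA per cell cannot be told apart.

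Stratified epithelium is built in layers. Basal keratinocytes divide on the basement membrane, are specified by the transcription factor p63 and fill their cytoskeleton with the keratin pair KRT5 and KRT14. Cells that leave this layer change their keratins and their junctions, and finally build the cornified envelope, a shell of cross-linked proteins. KRT6A, KRT16 and KRT17 are made in hair follicles and are switched on in the skin around wounds and in inflamed epidermis.

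Shown are the promoters of both genes chosen on their day 6 difference and of *Sprr1a*, the one among these genes with AP-1 matches. Each is given as the 250 bases before the RefSeq start. They are RefSeq sequences of GRCm38.p6, written 5′ to 3′ on the strand of the gene, and lie at chr14:57104703-57104952 on the minus strand, chr6:86627924-86628173 on the plus strand and chr3:92485882-92486131 on the minus strand. The RefSeq start, from which positions are counted, is the annotated start for *Gjb2*. For *Asprv1* and *Sprr1a* it lies 10 and 14 bases inside the annotated gene. Capitals mark the matches to the motifs searched on both strands.
Gjb2: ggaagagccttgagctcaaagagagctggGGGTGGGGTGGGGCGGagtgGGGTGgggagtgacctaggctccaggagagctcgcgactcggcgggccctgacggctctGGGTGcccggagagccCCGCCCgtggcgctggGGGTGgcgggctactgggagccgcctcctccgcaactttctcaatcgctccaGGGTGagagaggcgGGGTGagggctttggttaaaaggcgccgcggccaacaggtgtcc
Asprv1: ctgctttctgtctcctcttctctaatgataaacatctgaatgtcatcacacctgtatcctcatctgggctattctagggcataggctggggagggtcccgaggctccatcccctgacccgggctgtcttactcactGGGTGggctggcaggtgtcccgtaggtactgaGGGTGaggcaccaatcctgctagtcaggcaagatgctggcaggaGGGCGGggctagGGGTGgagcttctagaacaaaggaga
Sprr1a: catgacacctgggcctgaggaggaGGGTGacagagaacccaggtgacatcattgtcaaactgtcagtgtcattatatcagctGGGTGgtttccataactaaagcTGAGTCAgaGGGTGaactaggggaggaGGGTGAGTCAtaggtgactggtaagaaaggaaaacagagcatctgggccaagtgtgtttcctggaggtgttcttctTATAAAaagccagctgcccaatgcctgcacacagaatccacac
Windows of 300 bases, which also take in the first 50 bases after the start, were found for 6 of the 10 genes. The start in that of *Krt14* lies 1518 bases inside the annotated gene, and it is left out. In the other 5 (*Gjb2*, *Asprv1*, *Sfn*, *Krt5* and *Sprr1a*) the start is within 14 bases of the annotated start. The CACCC box (CACCC) was found in 5 of 5, beside 57.5% of all 32851 promoters. The GC box (GGGCGG) was found in *Gjb2* and *Asprv1* and in 35.7% of all promoters. *Gjb2* held 7 CACCC boxes and 2 GC boxes, the most of the 5. The AP-1 motif (TGANTCA) was found in *Sprr1a* alone, with its first bases 146 and 116 bases before the start, and in 7.81% of all promoters; the second overlaps a CACCC box. The TATA box (TATAAA) was found in *Sprr1a* alone, 43 to 38 bases before the start, and in 13.6% of all promoters. The octamer ATGCAAAT and the E-box CACGTG had 0 matches among the 5 and were in 1.74% and 7.15% of all promoters.

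The libraries held between 7735742 and 16445192 reads on genes, so that 3 reads are worth between 0.174 and 0.380 CPM, counts scaled to the size of the library. Values are given as log2-cpm, on which 0 reads stand at -2.87, and as the reads recovered from them. *Ncor1* was lower in the *siNcor1* libraries at day 3, with log2-cpm of 7.08 and 7.20 against 7.82 and 7.94 (difference 0.74, SE 0.12, limma adjusted p = 0.0139), but at day 6 the difference was -0.04 (adjusted p = 0.815). *Pou5f1*, the *Oct4* gene, whose reads may include the cassette, was at 7.63 and 7.68 in *siNcor1* and at 7.53 and 7.62 in *siOct4* at day 3 (difference -0.08, adjusted p = 0.941). At day 6 it was higher in the *siOct4* libraries, at 9.45 and 8.97 against 7.55 and 7.32 (difference 1.78, SE 0.16, adjusted p = 1.1e-04). *Pou5f1* was thus not called lower in these libraries on either day, so it does not check the label. The part of cassette reads was not tested, and earlier days were not measured here. The libraries are called labelled *siOct4* throughout. Differences between the knockdowns are the value in libraries labelled *siOct4* minus that in *siNcor1*.

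Levels were low. Summed over the 10 genes, the level was 6.26 to 9.09 CPM in *siNcor1* and 7.45 to 9.11 CPM in libraries labelled *siOct4* at day 3, and 81.5 to 85.5 CPM and 23.4 to 29.3 CPM at day 6. *Sfn* alone made up most of it: without *Sfn* the sums at day 6 were 34.4 to 39.8 CPM in *siNcor1* and 4.23 to 4.24 CPM in libraries labelled *siOct4*. These sums take in *Gjb2* and *Asprv1*, chosen on this difference, and without them the other 7 genes summed to 16.2 to 20.7 CPM and 3.80 to 3.99 CPM. Beside them, 14 markers of simple epithelium summed to 764 to 809 CPM in *siNcor1* at day 6 and 325 to 365 CPM in libraries labelled *siOct4*, and 15 fibroblast markers to 8292 to 8738 CPM and 4721 to 4881 CPM. The defining basal keratins *Krt5* and *Krt14* had at most 48 and 44 reads in any library, against 2400 for *Krt8*, a keratin of simple epithelium. *Krt1*, a keratin of the layers above, had at most 6 reads. *Krt5*, *Krt14* and *Krt1* were thus near 0 at day 3 and low at day 6. *Trp63* and the keratin *Krt10* did not share this pattern, with 12 to 20 and 12 to 26 reads in the libraries of day 3. Nor did the keratins *Krt13* and *Krt80*, with 29 to 107 and 20 to 40 reads in those libraries. At day 6 *Krt13* had 70 to 89 reads. The 10 genes are called keratinocyte genes for where they are known to be made.

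**Figure D1:**
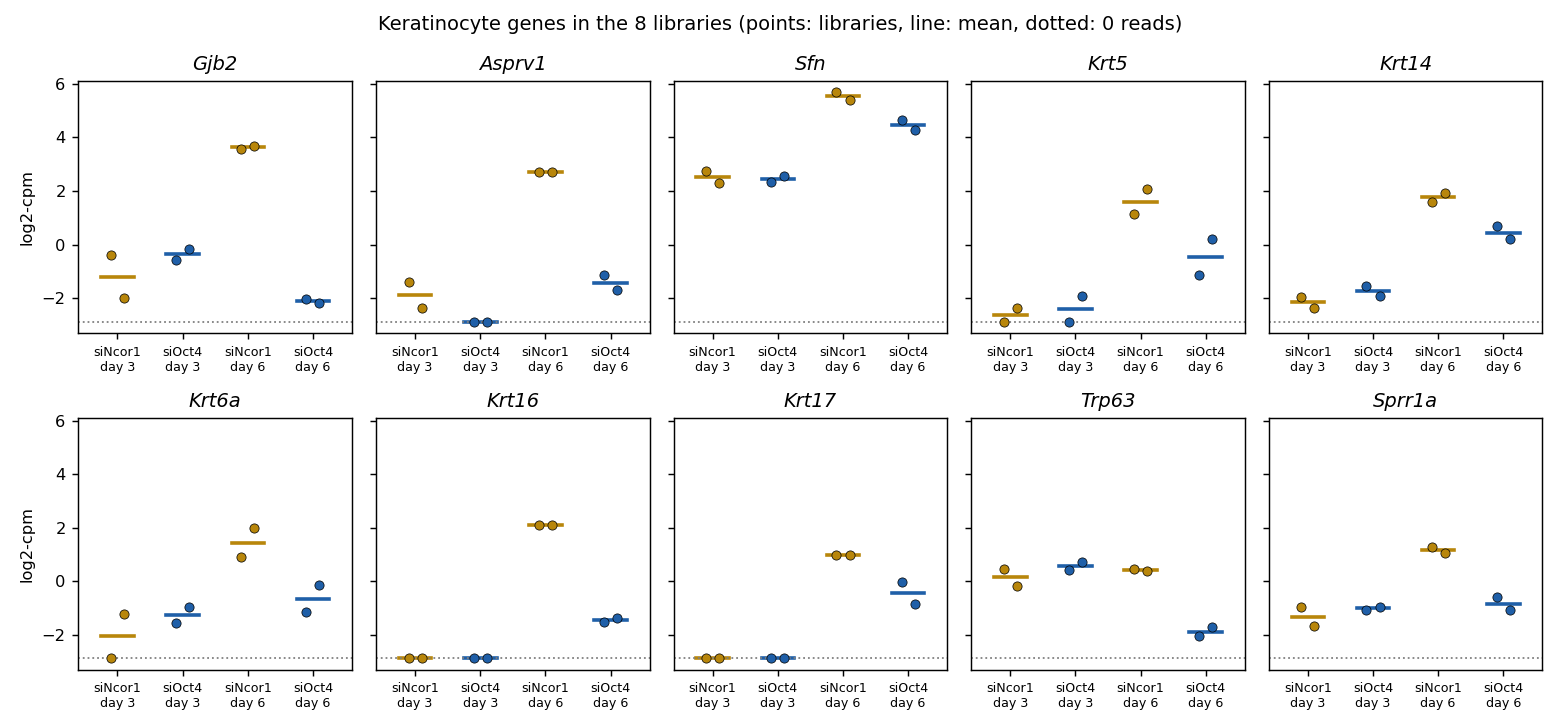
Level of each keratinocyte gene (y axis, log2-cpm) in the 8 libraries, by group (x axis), with a point for each library, a line at the group mean and a dotted line at 0 reads. All panels but that of *Trp63* are highest in *siNcor1* at day 6, where *Trp63* stands at 0.43 against -1.88 in the libraries labelled *siOct4* at day 6.

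*Trp63*, which encodes the regulator p63, did not follow the others. It had 20 and 13 reads in *siNcor1* at day 3, 18 and 12 in libraries labelled *siOct4* at day 3, 15 and 14 in *siNcor1* at day 6 and 1 and 2 in libraries labelled *siOct4* at day 6. Only the last group stood apart, and it lay below every other library. Its log2-cpm were 0.15 ± 0.44, 0.58 ± 0.20, 0.43 ± 0.05 and -1.88 ± 0.24 (SD, n = 2 each). At day 6 the difference was -2.30 (SE 0.40, limma adjusted p = 0.00278 in the fit of all genes without a filter), and the reads gave a level 8.56 times as high in *siNcor1* (95% counting interval 2.65 to 43.9). From day 3 to day 6 it fell by 2.46 in libraries labelled *siOct4* (SE 0.40, adjusted p = 5.0e-04), whereas in *siNcor1* the difference was 0.28 (SE 0.40, adjusted p = 0.667). The knockdown difference at day 6 minus that at day 3 was -2.74 (SE 0.57, adjusted p = 0.0100), a call lost without replicate 2 of *siNcor1* at day 3 (adjusted p = 0.0689) or at day 6 (0.0528), where the range over 10 alternatives was 0.0105 to 0.0689.

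The basal keratins appeared between the days. *Krt5*, the type II partner of the pair, had 0 and 1 reads in *siNcor1* and 0 and 1 in libraries labelled *siOct4* at day 3, and 25 and 48 against 3 and 12 at day 6. *Krt14*, its type I partner, had 2 and 1 reads against 3 and 1 at day 3, and 35 and 44 against 14 and 12 at day 6. Neither gene's groups overlapped at day 6, while at day 3 both were at or under 3 reads in every library, where no fold can be given. The day 6 difference of *Krt5* was -2.07 (SE 0.58, adjusted p = 0.0265) and that of *Krt14* -1.32 (SE 0.42, adjusted p = 0.0439), both without a filter on low values. Both calls depended on single libraries. That of *Krt5* was lost without replicate 1 (adjusted p = 0.0549) or 2 (0.225) of *siNcor1* at day 6 or replicate 1 of *siOct4* at day 6 (0.157), over a range of 0.00783 to 0.225. That of *Krt14* was lost without either *siNcor1* library of day 3 (0.0597 and 0.0581) or of day 6 (0.102 and 0.238) or either library labelled *siOct4* of day 6 (0.0580 and 0.152), over a range of 0.0129 to 0.238. In reads, *Krt5* was 4.31 times (2.45 to 8.09) and *Krt14* 2.69 times (1.71 to 4.37) as high in *siNcor1*.

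The basal keratins also changed with time, by amounts that are not well set from at most 3 reads at day 3. The change of *Krt14* in *siNcor1* ran from 1.97 to 4.83 over 19 alternatives to the fit with the filter. In *siNcor1*, *Krt14* rose by 3.92 (SE 0.42, adjusted p = 1.0e-04) and *Krt5* by 4.22 (SE 0.58, adjusted p = 4.8e-04). In libraries labelled *siOct4*, *Krt14* rose by 2.19 (SE 0.42, adjusted p = 0.00139) and *Krt5* by 1.93 (SE 0.58, adjusted p = 0.0187). The *Krt5* call in libraries labelled *siOct4* was lost without their replicate 1 of day 3 (adjusted p = 0.122) or replicate 2 of day 6 (0.142), over a range of 0.00496 to 0.142. Against 3 and 4 reads at day 3, the day 6 reads of *Krt14* gave ratios of 36.6 (12.1 to 182) in *siNcor1* and 6.93 (2.41 to 27.3) in libraries labelled *siOct4*. Against 1 read at day 3, those of *Krt5* gave 102 (17.7 to 4067) and 16.0 (2.46 to 674). For both keratins the knockdown difference at day 6 minus that at day 3 missed the threshold, at -1.73 (SE 0.59, adjusted p = 0.0763) for *Krt14* and -2.28 (SE 0.82, adjusted p = 0.0893) for *Krt5*, which passed without replicate 2 of *siOct4* at day 6 (0.0362, over a range of 0.0348 to 0.305).

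Among the keratins of wounded and follicular epithelium, *Krt16* stood out. It had 0 reads in all 4 libraries of day 3, 50 and 50 reads in *siNcor1* at day 6 and 2 and 3 in libraries labelled *siOct4* at day 6. Both *siNcor1* libraries of day 6 were at 2.11 ± 0.02, well clear of -1.44 ± 0.12. The day 6 difference was -3.54 (SE 0.43, adjusted p = 6.2e-04 without a filter, over a range of 2.7e-04 to 0.0224), with a level 17.7 times as high in *siNcor1* in reads (7.34 to 55.7). From day 3 to day 6 *Krt16* was at least 23.2-fold higher in *siNcor1*, against 3 reads per library. In libraries labelled *siOct4* it stayed at or under 3 reads, so that no fold is given. The test of that difference (adjusted p = 0.0195) was lost without either library labelled *siOct4* of day 3 or replicate 2 of day 6. With 0 reads in all day 3 libraries, the day 6 minus day 3 difference of *Krt16* is its day 6 difference again.

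*Krt17* and *Krt6a* were lower. *Krt17* had 0 reads in all libraries of day 3, 22 and 22 in *siNcor1* at day 6 and 8 and 5 in libraries labelled *siOct4* at day 6. It was at least 10.2-fold higher at day 6 than at day 3 in *siNcor1* and at least 2.18-fold higher in libraries labelled *siOct4*. Its groups did not overlap at day 6, but the difference of -1.41 (SE 0.47, adjusted p = 0.0512) did not pass the threshold, and it did so with voom (adjusted p = 0.0248) and without replicate 1 of *siOct4* at day 6 (0.0405), over a range of 0.0248 to 0.197.

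*Krt6a* had 0 and 5 reads against 3 and 3 at day 3, and 21 and 45 against 3 and 9 at day 6. Its difference at day 6 was -2.08 (SE 0.62, adjusted p = 0.0329), and it rose by 3.49 between the days in *siNcor1* (SE 0.62, adjusted p = 0.00201). The day 6 call was lost without either *siNcor1* library of day 6 (adjusted p = 0.0596 and 0.269) or replicate 1 of *siOct4* at day 6 (0.165), over a range of 0.00652 to 0.269. In libraries labelled *siOct4* the difference between the days was 0.61 (SE 0.62, adjusted p = 0.458). The knockdown difference at day 6 minus that at day 3 was -2.88 for *Krt6a* (SE 0.87, adjusted p = 0.0494), a call lost under 7 of 10 alternatives (voom and 6 of the 8 left-out libraries, all but replicate 2 of *siNcor1* at day 3 and replicate 2 of *siOct4* at day 6), over a range of 0.0111 to 0.217. The reads of *Krt6a* are the least certain, since 58.9% of its 43-base stretches, the length of a read, are shared with other genes, most with *Krt6b*, which had 10 and 15 reads in *siNcor1* and 7 and 11 in libraries labelled *siOct4* at day 6. The shares were 42.0% for *Krt16*, 18.2% for *Krt14*, 13.2% for *Krt5* and 6.96% for *Krt17*. The genes of *Krt14*, *Krt16* and *Krt17* lie within chr11:100203162-100261029, and those of *Krt6a* and *Krt5* within chr15:101689910-101712898 (GRCm38).

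*Sfn*, which encodes the 14-3-3 protein sigma (stratifin) of differentiating keratinocytes, was the most abundant of the 10 and had the most reads at day 3. It had 105 and 82 reads in *siNcor1* and 73 and 46 in libraries labelled *siOct4* at day 3, and 618 and 496 against 237 and 226 at day 6. The groups overlapped at day 3 and were apart at day 6. In log2-cpm they stood at 2.51 ± 0.31, 2.46 ± 0.16, 5.53 ± 0.21 and 4.46 ± 0.27. *Sfn* rose between the days by 3.02 in *siNcor1* (SE 0.21, adjusted p = 4.5e-06) and by 2.003 in libraries labelled *siOct4* (SE 0.21, adjusted p = 1.4e-05). The day 3 difference was -0.05 (SE 0.21, adjusted p = 0.970), with its sign turned by leaving out single libraries, and the day 6 difference was -1.07 (SE 0.21, adjusted p = 0.00327), or 2.13 times as many reads, relative to library size, in *siNcor1* (1.91 to 2.38). The difference at day 6 minus that at day 3 was -1.02 (SE 0.29, adjusted p = 0.0303). This call was lost without the trend of the variance (adjusted p = 0.0667), and without replicate 2 of *siNcor1* at day 3 (0.140), replicate 2 of *siOct4* at day 3 (0.109), replicate 1 (0.113) or 2 (0.0605) of *siNcor1* at day 6 or replicate 2 of *siOct4* at day 6 (0.0527), over a range of 0.0111 to 0.140. Of the 43-base stretches of *Sfn*, 18.7% are shared with other genes, most with the gene model *Gm7850*. The other 6 genes of the 14-3-3 family, which act in all cells, had a median difference of -0.06 at day 6. Of them 1 was lower (*Ywhag*, -0.36, SE 0.12, adjusted p = 0.0435), beside 18.6% of all genes tested.

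*Gjb2* encodes connexin 26, a gap junction subunit of epithelia. It had 10 and 2 reads in *siNcor1* and 8 and 6 in libraries labelled *siOct4* at day 3, and 143 and 152 against 1 and 1 at day 6. Hence the day 6 groups, on which the gene was chosen, were at 3.63 ± 0.08 and -2.11 ± 0.09, a difference of -5.75, and the reads differed 131-fold (35.8 to 1083). The day 3 difference, which the choice did not use, was 0.84 (SE 0.49, adjusted p = 0.700) and the reads gave a ratio of *siOct4* to *siNcor1* of 1.72 (0.738 to 4.07). Between the days *Gjb2* differed by 4.83 in *siNcor1* and by -1.75 in libraries labelled *siOct4*, as values with no test. Of 6 other connexins that passed the filter on low values, 3 were lower at day 6 and 0 at day 3, beside 18.6% and 0.692% of all genes tested. Among them were *Gjb5*, a connexin of skin (-1.50, SE 0.43, adjusted p = 0.0224), and *Gja1*, a connexin of fibroblasts (-0.42, SE 0.12, adjusted p = 0.0203).

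*Asprv1* encodes an aspartic protease of the upper epidermis that processes profilaggrin. It had 4 and 1 reads against 0 and 0 at day 3, and 78 and 76 against 3 and 2 at day 6, where the choice was made. The day 6 groups were at 2.71 ± 0.01 and -1.42 ± 0.40, a difference of -4.14, with a ratio of reads of 27.3 (11.4 to 85.1) in favour of *siNcor1*. At day 3 the groups did not overlap, but with 0 reads in libraries labelled *siOct4* and at most 4 in *siNcor1* no fold is given, and the test had an adjusted p of 0.575. In *siNcor1* the reads of day 6 were 42.9 times those of day 3 (17.98 to 134).

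*Sprr1a*, a small proline-rich protein of the cornified envelope, had 6 and 3 reads against 5 and 3 at day 3, and 28 and 23 against 5 and 4 at day 6. It was high in one group only, *siNcor1* at day 6, and the other 3 groups overlapped. The day 6 difference was -2.001 (SE 0.43, adjusted p = 0.00779), which was lost without replicate 1 (0.0596) or replicate 2 (0.0599) of *siNcor1* at day 6, over a range of 0.00634 to 0.0599. In *siNcor1* it rose by 2.504 (SE 0.43, adjusted p = 0.00175), while in libraries labelled *siOct4* the difference between the days was 0.18 (SE 0.43, adjusted p = 0.762). The difference at day 6 minus that at day 3 was -2.32 (SE 0.61, adjusted p = 0.0293), and it was lost when any of 6 of the 8 libraries was left out, over a range of 0.0253 to 0.139. The call stood without replicate 1 of *siNcor1* at day 3 or replicate 1 of *siOct4* at day 6.

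Scaled to the length of their exons, the genes kept *Sfn* first in all groups, at 3.49 and 3.34 CPM per kb at day 3 and 28.7 and 13.7 CPM per kb at day 6 in *siNcor1* and in libraries labelled *siOct4*. In *siNcor1* at day 6 the order below it was *Gjb2* (5.11), *Asprv1* (4.15), *Krt16* (2.66), *Sprr1a* (2.63), *Krt14* (1.87), *Krt5* (1.39), *Krt17* (1.18), *Krt6a* (1.14) and *Trp63* (0.144). In that order the libraries of *Krt16* and *Sprr1a* overlapped, as did those of each neighbour from *Krt14* to *Krt6a*, so that their order is not set by these data. In libraries labelled *siOct4* at day 6 *Krt14* (0.710) and *Sprr1a* (0.538) followed *Sfn*, and *Gjb2* (0.0396) and *Trp63* (0.0164) were last, with overlapping libraries for each neighbour from *Krt14* to *Krt16*.

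**Figure D2:**
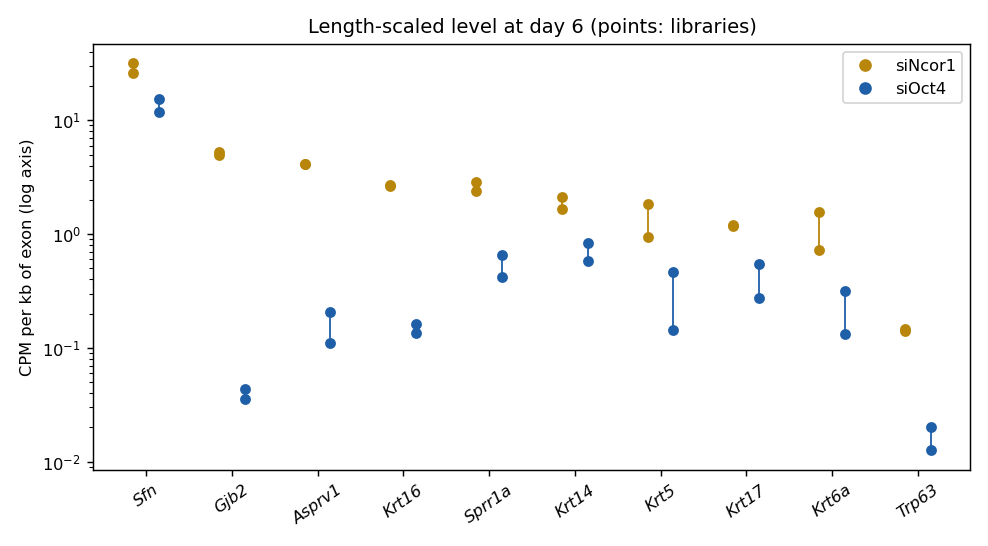
Level per kb of exon at day 6 (y axis, CPM per kb, log axis) of the 10 genes, ordered by *siNcor1* (x axis), with joined points for the 2 libraries of each group. *Sfn* is first in both groups, at 28.7 and 13.7 CPM per kb, and *Gjb2* is second in *siNcor1* (5.11) but next to last in *siOct4* (0.0396).

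Taking the comparisons one at a time, the knockdowns at day 3 differed for 0 of the 10 genes, with the filter or without it, and 0 had an unadjusted limma p under 0.05. Voom called 0 as well, and among all genes without a filter 0.611% were called (1.07% of the 13866 with a mean of at least 1 CPM). Of the 10, 8 had at most 10 reads in every day 3 library. At day 6, 7 of the 8 genes other than *Gjb2* and *Asprv1* were lower in libraries labelled *siOct4* in the fit without a filter. The exception was *Krt17*, and 13.0% of all genes were lower in that fit. The 8 were named with earlier results of these data known, so the count and its p-values are not independent of these data. This count fell to 2 without replicate 1 of *siNcor1* at day 6, when *Krt16* and *Trp63* were called, and to 3 without its replicate 2, when *Sfn* was called with them. All genes called in that fit fell from 3996 to 1945 and to 855. For all 8 genes the groups did not overlap, as for 30.2% of all genes in this direction, and the median difference was -2.03, beside -0.01 over all genes. The filter itself passed 5 of the 10, of which *Krt16* (mean 1.10 CPM) and *Krt14* (1.20) lay just inside it and *Krt5* (0.952), *Krt6a* (0.934) and *Trp63* (0.928) just outside, followed by *Sprr1a* (0.797) and *Krt17* (0.617). *Gjb2*, *Asprv1*, *Krt14* and *Krt16* passed it through *siNcor1* at day 6, and their tests are therefore given without it. In the filtered fit *Sfn*, *Krt14* and *Krt16* were lower, beside 18.6% of the genes tested, and they were higher with time in *siNcor1* (13.8%) and in libraries labelled *siOct4* (22.2%), while *Sfn* and *Krt16* had a lower day 6 than day 3 difference (12.9%). Since the filter favours such genes, these counts are not read further.

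**Figure D3:**
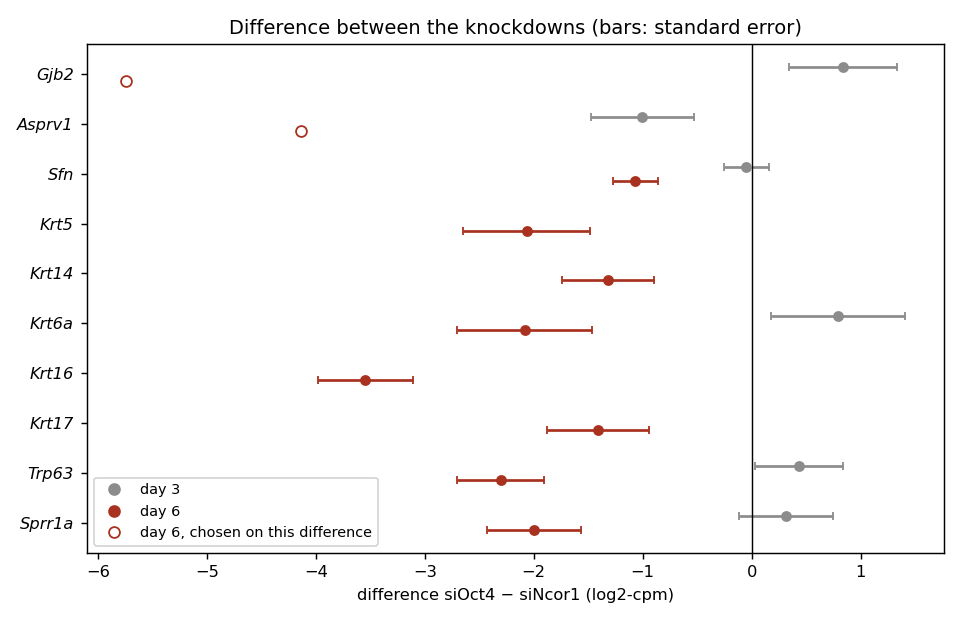
Difference between the knockdowns (x axis, log2-cpm in libraries labelled *siOct4* minus *siNcor1*) for each gene at day 3 (grey) and day 6 (red), with the standard error of the fit without a filter as a bar. Hollow points are *Gjb2* and *Asprv1* at day 6, which carry no test, and *Krt5*, *Krt14*, *Krt16* and *Krt17* have no day 3 point because all 4 libraries were at or under 3 reads; the tested day 6 values lie between -3.54 and -1.07.

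With time, 7 of the 8 genes were higher at day 6 in *siNcor1* (10.9% of all genes were), all but *Trp63*, and the count was 7 whichever library was left out. The same 7 were higher without overlap, as were 31.3% of all genes. In libraries labelled *siOct4*, 5 were higher (*Sfn*, *Krt5*, *Krt14*, *Krt16* and *Krt17*, beside 19.0% of all genes) and 1, *Trp63*, was lower (22.8% of all genes), while *Krt6a* and *Sprr1a* did not pass. Without overlap, 5 were higher and 1 was lower, beside 33.9% and 34.7% of all genes. Both counts of 5 take in *Krt16* on 0 and 0 reads at day 3 against 2 and 3 at day 6, where no fold is given. The total of 6 fell to 4 without replicate 1 of *siOct4* at day 3 or replicate 2 at day 6, when *Krt5* and *Krt16* were lost. The median fitted change of the 8 genes was 3.67 in *siNcor1* and 1.68 in libraries labelled *siOct4*, beside -0.02 and 0.02 over all genes. With genes at 0 reads on day 3 set to their bound, it was 3.42 in *siNcor1* and, over the 7 genes other than *Krt16*, 1.12 in libraries labelled *siOct4*. The knockdown difference at day 6 minus that at day 3 was negative and passed for 5 of the 8 (*Sfn*, *Krt6a*, *Krt16*, *Trp63* and *Sprr1a*, beside 8.52% of all genes) in the fit without a filter, where that of *Krt16* restates its day 6 difference, and for 1 to 4 with a library left out, fewest (*Krt16*) without replicate 2 of *siNcor1* at day 6. That library and its replicate enter the knockdown comparison at day 6 and the time comparison in *siNcor1* alike, so that both rest on the same values.

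Other genes of the epidermis, from lists drawn up by function, were tested with the filter, where 0.692% of genes were lower and 0.375% higher at day 3, and 18.6% lower and 12.1% higher at day 6. Listed genes that pass the filter through *siNcor1* at day 6 are favoured by it. Such are *Prss8*, with 106 and 146 reads there and at most 15 in any other library, and *Pkp3*, with 77 and 76 and at most 23. The day 6 counts of the lists are therefore not read further. Of 8 cornified envelope genes that passed the filter, 2 were lower at day 3 in libraries labelled *siOct4*, the secreted *Dmkn* (-2.19, SE 0.25, adjusted p = 0.00355) and the cross-linking enzyme *Tgm3* (-2.08, SE 0.26, adjusted p = 0.00566). At day 6, 5 were lower, with *Ppl*, or periplakin, at -1.95 (SE 0.18, adjusted p = 1.3e-04), *Sbsn* at -1.46 (SE 0.26, adjusted p = 0.00243) and *Dmkn* at -1.20 (SE 0.25, adjusted p = 0.00460). The list median was -0.90 at day 3 and -0.94 at day 6, beside -0.02 and -0.03 over the genes tested. *Lor* and *Ivl*, the classic envelope proteins, had at most 11 and 38 reads in any library, and both lay under the filter. *Ivl* went against the list at day 3, with 38 and 15 reads in libraries labelled *siOct4* and 8 and 7 in *siNcor1*, values given with no test. So did 2 genes that passed the filter and were not called. *Sprr2b* had 239 and 110 reads against 136 and 136, where the library with 110 was the smallest of all. *Sbsn* was at 0.39 (SE 0.26, adjusted p = 0.716). Of 4 other stratified keratins, 0 were called at day 3 and 1 was lower at day 6, *Krt80* (-2.72, SE 0.34, adjusted p = 4.6e-04). Over all libraries *Krt10* had 12 to 32 reads and *Krt13* 29 to 107.

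Desmosomes and hemidesmosomes anchor keratinocytes to one another and to the basement membrane. Of 8 desmosome genes, 1 was lower at day 3 (*Perp*, -0.86, SE 0.13, adjusted p = 0.00953), and at day 6, 4 were lower and 1 higher, with *Pkp3* (-1.55, SE 0.45, adjusted p = 0.0227), *Jup* (-1.33, SE 0.14, adjusted p = 2.9e-04) and *Dsg2* (-1.28, SE 0.27, adjusted p = 0.00461) moving most. Of 8 genes of the hemidesmosome and of laminin-332, 1 was lower at day 3, the integrin *Itgb4* (-1.53, SE 0.22, adjusted p = 0.00805). At day 6, 3 were lower, among them *Plec* (-0.91, SE 0.17, adjusted p = 0.00273) and *Itga3* (-0.66, SE 0.14, adjusted p = 0.00590). The medians at day 6 were -0.36 for the desmosome and -0.48 for the hemidesmosome.

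Some regulators known from stratified epithelium differed at day 3. Of 16, 4 were lower at day 3, with the splicing factor *Esrp1* at -1.996 (SE 0.26, adjusted p = 0.00591) and the transcription factor *Tfap2c* at -1.89 (SE 0.34, adjusted p = 0.0231). At day 6, 6 were lower and 1 higher, with *Elf3* (-1.66, SE 0.50, adjusted p = 0.0260), *Gata3* (-1.62, SE 0.25, adjusted p = 9.6e-04) and *Tfap2c* (-1.41, SE 0.34, adjusted p = 0.00981) moving most. *Esrp1* was at 0.01 by then. Of 7 epidermal proteases and inhibitors, 3 were lower at day 3, with *Spint1* at -1.84 (SE 0.24, adjusted p = 0.00591), and 2 at day 6. The channel-activating protease *Prss8*, which passed the filter through *siNcor1* at day 6, was at -3.16 then (SE 0.52, adjusted p = 0.00149). The inhibitor *Spint2* (-1.32, SE 0.23, adjusted p = 0.0201) and the protease *St14* (-1.08, SE 0.15, adjusted p = 0.00834) were the others at day 3. *Klk8* and *Serpinb2* of this list went the other way at day 3 without a call. In libraries labelled *siOct4* they had 31 and 17 and 38 and 19 reads, against 17 and 18 and 16 and 17 in *siNcor1*.

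Markers of simple epithelium and of fibroblasts were also lower at day 6. Of 13 simple epithelium markers, 6 were lower at day 3, with *Epcam* at -2.07 (SE 0.26, adjusted p = 0.00591), *Cdh1* at -2.02 (SE 0.13, adjusted p = 6.1e-05) and *Krt8* at -1.68 (SE 0.16, adjusted p = 8.2e-04). At day 6, 9 were lower, with *Krt7* (-3.85, SE 0.35, adjusted p = 1.4e-04), *Krt18* (-3.08, SE 0.19, adjusted p = 9.2e-06) and *Cldn4* (-3.08, SE 0.30, adjusted p = 1.7e-04) most so. Of 15 fibroblast markers, 0 were called at day 3, with sums of 12039 to 12364 CPM in *siNcor1* and 15314 to 17844 CPM in libraries labelled *siOct4*, and 12 were lower at day 6, including *Pdgfra* (-1.14, SE 0.16, adjusted p = 6.2e-04), *Col1a1* (-1.01, SE 0.18, adjusted p = 0.00198) and *Pdgfrb* (-0.95, SE 0.12, adjusted p = 4.4e-04). None of the markers of either list was at 0 in all 8 libraries. Sums for 4 immune, 5 endothelial and 3 melanocyte and Schwann cell markers at day 6 were 8.23 to 10.1, 16.4 to 20.9 and 2.85 to 4.38 CPM. For 2 skeletal muscle markers they were 2.72 to 6.55 CPM. Of these lists 2, 1, 2 and 2 markers passed the filter, and 0 were called at day 6. The endothelial sum was mostly *Tek* (151 to 234 reads at day 6, with at most 9 for any other). The immune sum was mostly *Cd68* (72 to 103 reads). The part of these cells in the differences of the keratinocyte genes was not tested.

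**Figure D4:**
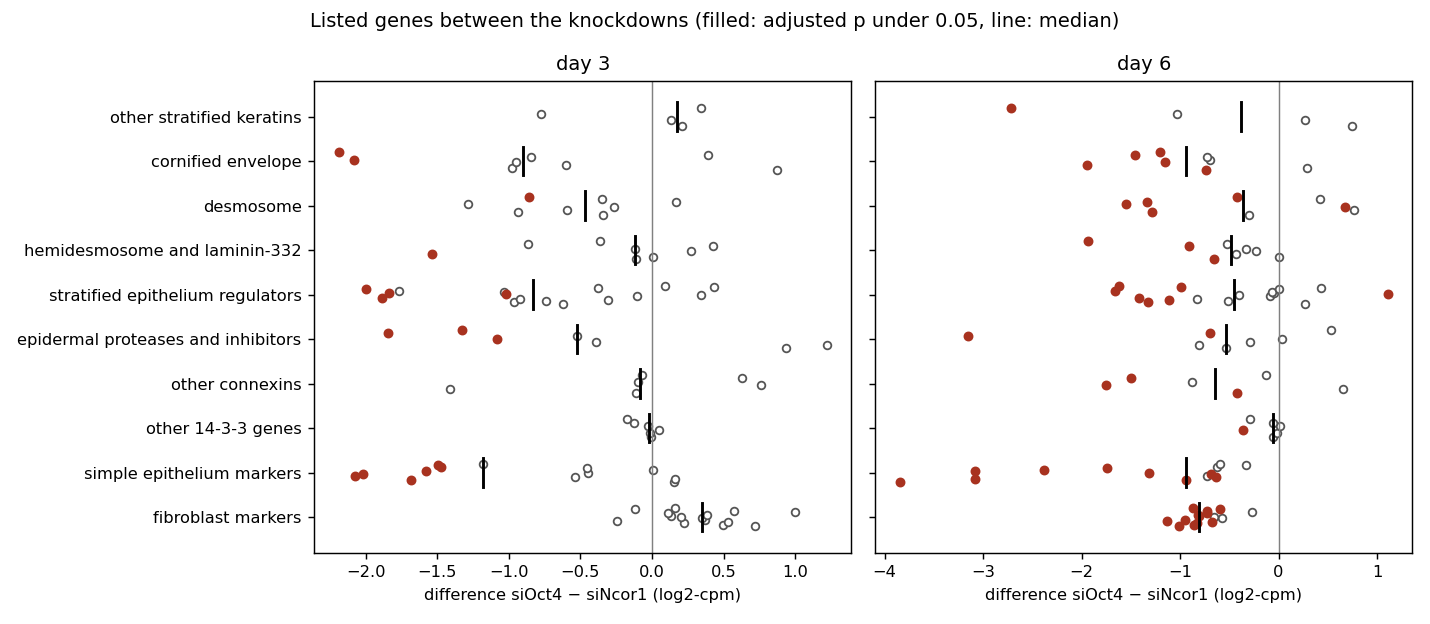
Difference between the knockdowns (x axis, log2-cpm) of the genes of 10 lists that passed the filter, at day 3 (left) and day 6 (right), filled where the adjusted p was under 0.05, with a line at each list's median. At day 6 the filled points of cornified envelope genes (5 of 8) and fibroblast markers (12 of 15) lie left of 0.

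Over the 8 libraries, the log2-cpm of *Trp63* had a Pearson r between -0.28 and 0.60 with each of the other 9 genes, and those 9 had an r of at least 0.60 with one another. The ranges meet at *Gjb2*, whose r was 0.598 with *Trp63* and 0.601 with *Krt17*. The 8 genes outside the set most like the mean profile of the 5 that passed the filter were *Cdh13* (r = 0.993), *Tmprss2* (0.990), *Clu* (0.990), *Notum* (0.989), *Icam1* (0.988), *Plin3* (0.987), *Sqstm1* (0.986) and *Cpt1c* (0.986). That profile holds *Gjb2* and *Asprv1*, chosen on day 6, and *Krt14* and *Krt16*, which passed the filter through *siNcor1* at day 6, so that likeness to it is likeness to the pattern chosen. These are descriptions over 8 libraries in 4 groups, and the points of a group are replicates. *Tmprss2*, a serine protease of epithelia, was the one of these with 2 or fewer reads in each library of day 3, and had 109 and 120 reads in *siNcor1* and 3 and 7 in libraries labelled *siOct4* at day 6.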

How the data were processed

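RNA-seq was analysed in 8 libraries (2 knockdowns, 2 days, 2 replicates). Per the labels, the authors used STAR 2.5.2b, edgeR 3.20.9 and mm10 (GRCm38). The read counter is not given in the sources used here. The authors deposited log2-cpm values, from which the reads were recovered by subtracting the lowest value on the linear scale (100% of values were whole within 0.1 read). Counting intervals at 95% are exact and cover counting error only. Replicates were no duplicates: a chi-square of their reads, divided by its degrees of freedom, was 8.44 to 18.7.

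Tests used limma 3.58.1 in R 4.3.3 (lmFit, then eBayes with trend=TRUE) on the deposited log2 values of all 4 groups together, with Benjamini-Hochberg adjustment at 0.05, for the 13866 genes whose mean CPM reached 1. Members under this filter were taken from the same fit over all 18990 genes, and so were the members that passed it through *siNcor1* at day 6. Printed p-values are thus with the filter for *Sfn* and all genes that are no members, and without it for the other 9 members. Where all libraries of a group had 0 reads, a bound against 3 reads per library replaces the fold, and no fold is given where both groups had at most 3 reads per library. The fit was tested on simulated reads.

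Coordinates and exon lengths came from GENCODE M21 (18969 genes matched), promoters from RefSeq. The members and lists were chosen with earlier results of these data known, and the motifs after the values were seen. Named genes were the members, from each list up to 3 genes with the largest difference past the threshold at each day, the 8 genes most like the members, *Ncor1* and *Pou5f1*. Some genes that this rule names are not reported here. Others (*Krt1*, *Krt6b*, *Krt10*, *Krt13*, *Lor*, *Ivl*, *Sprr2b*, *Klk8*, *Serpinb2*, *Tek* and *Cd68*) were named after their values were seen. The alternatives were other normalizations, filters, pseudocounts, voom, the replicate block and leaving out each library. Whether same-numbered libraries share a batch is not stated.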

Additional observations from a re-analysis of the deposited data

Results flagged for a closer look

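The size of the knockdown difference differed between the days for *Sfn* in the fit with the filter. It was -0.05 at day 3 and -1.07 at day 6, a change of -1.02 (SE 0.29, limma adjusted p = 0.0303). This call was lost under 6 of 19 alternatives, and 12.9% of all genes tested were called in this direction. All *Sfn* libraries were higher at day 6, and by less in those labelled *siOct4*. The same test passed for *Krt16* (-3.54), but with 0 reads in all day 3 libraries this value is its day 6 difference again and shows nothing about day 3.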

How the results depend on the processing

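With the filter, 3 members were called at day 6 between the knockdowns, and in each time comparison. Without a filter these counts were 7 between the knockdowns, 7 in *siNcor1* and 6 in *siOct4*, and the change between the days gave 5 in place of 2. With a mean of at least 10 CPM, 1 member was left in each of these 4 comparisons. Leaving out 1 library gave 0 to 2 members for the change between the days with the filter, and without a filter 2 to 7 between the knockdowns at day 6 and 1 to 4 for the change. With time in *siOct4* it gave 2 to 3 with the filter and 4 to 6 without, and with the filter quantile normalization, a pseudocount of 1 and only the groups compared gave 2. All genes called at day 3 numbered 148, and 43 without the trend, 81 with at least 10 CPM and 3 to 375 with a library left out. With a library left out, all genes called were 1398 to 4669 at day 6 (4251 with none), 2360 to 5954 with time in *siNcor1* (4819) and 1009 to 3667 for the change (2867). The *Sfn* difference at day 3 turned to 0.0056 with quantile normalization, 0.17 without replicate 1 of *siNcor1* and 0.065 without replicate 1 of *siOct4*, over -0.27 to 0.17 with a library left out. Leaving out 1 library also turned *Krt6a* (-0.026 to 1.62) and *Sprr1a* (-0.036 to 0.67) at day 3, *Trp63* with time in *siNcor1* (-0.032 to 0.59) and *Sprr1a* with time in *siOct4* (-0.057 to 0.42), and none of these 5 values was called. With the filter, the *Krt14* difference at day 6 was lost with median centring (adjusted p = 0.0529), a pseudocount of 0.1 (0.0542) and totals without *Gm26917*, a gene model that took 15.5 to 29.1% of the reads (0.0560), an alternative added after the data were seen, as were those of the unfiltered fit. Its change between the days passed without the trend (0.0229), with quantile normalization (0.0397) and with a pseudocount of 1 (0.0365).

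The replicate number as a block left the member counts with the filter as they were (0, 3, 3, 3 and 2) and gave 4698 genes at day 6. Without a filter, it gave 7 of 8 at day 6 and, for the change, 6 in place of 5, with *Krt5* added (adjusted p = 0.0348, and 0.0362 without the block but also without replicate 2 of *siOct4* at day 6). The deviations of same-numbered libraries had correlations of -0.040 to 0.281, and the labels give only a number. Totals without normalization factors moved the median difference of all genes to -0.111 at day 6 and -0.138 with time in *siOct4*, and the share higher among called genes at day 6 was 39.5%, 46.8% with quantile normalization and 27.5% without factors. The cause of these changes was not tested. At day 3, 8 of the 10 genes had at most 10 reads in every library.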
